A study of Homo sapiens with 4 samples.

Results

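The integrated stress response was followed through 10 genes: the transcription factors ATF4, ATF3, ATF5, DDIT3 (also known as CHOP), CEBPB and CEBPG, and the effectors TRIB3, PPP1R15A (also known as GADD34), CHAC1 and NUPR1. They were chosen by name, as factors of the ATF4-CHOP axis and its feedback effectors. All 10 were found by gene symbol among the 25192 genes of the deposited tables, and all 10 were among the 14099 genes that had enough counts to be tested. The cells were A549, derived from a human lung adenocarcinoma, and were infected with retrovirus. EV libraries (n = 2) came from cells given the empty control virus, which expresses GFP alone, and FCN3 libraries (n = 2) from cells given the virus that carries FCN3, a secreted lectin, in the same vector. RNA was taken 48 h after infection in both groups. A549 is a single cancer cell line, expression of FCN3 was ectopic, and no uninfected cells were sequenced.

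In the integrated stress response, kinases that sense ER stress (EIF2AK3, also known as PERK), amino acid shortage, double-stranded RNA or heme shortage phosphorylate the translation factor eIF2alpha. General translation then falls while a few mRNAs with upstream open reading frames, among them those of ATF4, ATF5, DDIT3 and PPP1R15A, are translated better. ATF4 pairs with C/EBP proteins and switches on genes for amino acid supply together with DDIT3, ATF3, TRIB3 and CHAC1, while PPP1R15A directs a phosphatase to eIF2alpha and so turns the response down. Since part of this control acts on translation, the mRNA levels given here are not a measure of protein.

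FCN3 itself was at 1 and 0 expected counts in EV replicates 1 and 2 and at 722388 and 448352 in FCN3 replicates 1 and 2, as the labels say. The libraries held between 16353554 and 35733735 expected counts, replicate 1 being the deeper one in both groups. All 6 epithelial markers were above 3 counts, with a summed level of 7823 to 10240 TPM. EPCAM (1.09 to 3.65 TPM) and CDH1 (3.35 to 9.53 TPM) added little to that sum. Of 7 alveolar type II markers, 5 (the surfactant genes SFTPA1, SFTPA2, SFTPB and SFTPC, and NKX2-1) were at or under 3 counts in every library, and 10 markers of blood, endothelial, mesenchymal and neuronal cells summed to 7.87 to 13.7 TPM. Among these 10 was the mesenchymal COL1A1, at 2.70 to 8.12 TPM. edgeR called none of the tested markers without a block. The log2 fold changes given for the markers are from the fit without a block. With the replicate number as a block, KRT19 (log2 fold change 1.24), KRT18 (0.31) and KRT8 (0.26) of the 6 epithelial markers were called higher. EPCAM (-1.12) and CDH1 (-0.53) were called lower, and KRT7 (0.09) was not called. In the blocked fit the alveolar markers LAMP3 (3.33) and ABCA3 (0.43) and the neuronal NEFL (0.47) were called higher. LAMP3 rested on 12 and 2 expected counts in EV cells and on 81 and 61 with the FCN3 virus. The monocyte marker CD14 (-1.31), at 58 and 14 expected counts in EV cells and 24 and 5 with the FCN3 virus, was called lower. The part of these cells in the results was not tested.

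Some members carry short sequence matches upstream of a RefSeq transcription start. They are shown as description, and their part in the changes of the members was not tested. The 250 bases before each start in the RefSeq table (GRCh38.p14) were searched on both strands for TGATGCAA, the core of the composite C/EBP-ATF element that ATF4 binds with a C/EBP partner, for the CRE TGACGTCA, for the AP-1 site TGACTCA and for the ERSE, the ER stress element. NUPR1 had no entry in that table, and ATF4, ATF3, CEBPB and TRIB3 had no match. Windows of 30 bases around each match are given 5′ to 3′ on the strand of the gene, with the match in capitals. Their positions are those of the same bases in GRCh37. In the GENCODE annotation, all 30 bases of the CHAC1, PPP1R15A and ATF5 windows and 9 of the DDIT3 window lie within exons, against 0 of the CEBPG window.
CHAC1, chr15:41245449-41245478, plus strand, C/EBP-ATF core read on the opposite strand: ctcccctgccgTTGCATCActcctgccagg
CEBPG, chr19:33864966-33864995, plus strand, C/EBP-ATF core: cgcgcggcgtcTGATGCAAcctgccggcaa
PPP1R15A, chr19:49375609-49375638, plus strand, CRE: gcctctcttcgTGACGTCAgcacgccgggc
DDIT3, chr12:57914518-57914547, minus strand, AP-1: gcgcgcgcaTGACTCAcccacctcctccgt
ATF5, chr19:50431964-50431993, plus strand, AP-1: ggagagtgctgTGACTCAtgctggactcta

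The C/EBP-ATF core stood upstream of 2 of the 10 members and of 0.967% of the 27305 genes in the table. The CRE was found upstream of 1 member and 2.03% of genes, and the AP-1 letters upstream of 2 members and 5.19% of genes. The ERSE was found upstream of 0 members and 0.0916% of genes. Counted from the start, the first base of the match was at -209 in CHAC1, -42 in CEBPG, -58 in PPP1R15A, -241 in DDIT3 and -188 in ATF5. These are matches of letters and not measured binding sites, and longer upstream regions were not searched.

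Between FCN3-virus-transduced and EV cells, most of these genes rose. In RNA from whole cultures, a change in the level per cell and a change in the share of cells with the transcript cannot be told apart. By edgeR's quasi-likelihood test (FDR 0.01), 6 of the 10 were up-regulated (DDIT3, CHAC1, ATF3, TRIB3, PPP1R15A and CEBPG), beside 0.738% of all tested genes. None was called lower, where calls in either direction made up 0.965% of tested genes. One member, ATF5, was lower at an unadjusted p under 0.05, and DESeq2 without a block and limma also called 0 members lower. With the replicate number as a block, which compares libraries of the same number, ATF4 and NUPR1 joined the increases and ATF5 became a decrease: 8 members were called higher, beside 19.1% of tested genes, and 1 lower, beside 17.1% (36.2% in either direction). The members' median log2 fold change was 1.94, against 0.02 over all tested genes. Both FCN3 libraries lay on one side of both EV libraries in 9 of the 10, which was also so for 54.5% of all tested genes.

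**Figure D1:**
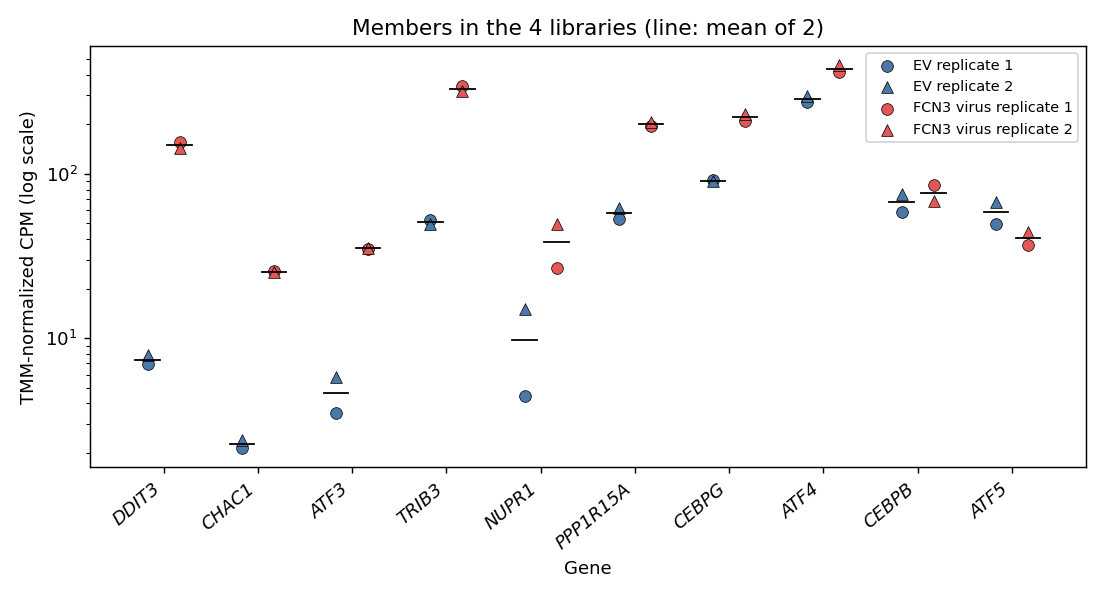
TMM-normalized CPM (counts scaled by library size, log axis) of the 10 members in each library, with EV in blue, the FCN3 virus in red, circles for replicate 1, triangles for replicate 2 and a line at the mean of 2. CEBPB is the gene whose groups overlap, ATF5 is the gene with lower values in the FCN3 libraries, and NUPR1 shows the widest gap between same-group libraries, 4.45 and 15.1 CPM in EV cells.

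ATF4 is the factor at the centre of the response. It was at 273 and 297 CPM in EV replicates 1 and 2 and at 413 and 457 CPM in FCN3 replicates 1 and 2. The groups did not overlap, and in each of them replicate 2 was slightly higher. The log2 fold change was 0.61 (SE 0.09), a 1.53-fold difference, and edgeR gave an adjusted p of 0.026 without the block and 2.3e-15 with it. ATF4 was thus not called at 0.01 without the block, and its increase was the smallest among the members that were called with it. By length-corrected level it was the most abundant member in all 4 libraries, at 399 and 429 TPM in EV cells and 555 and 623 TPM with the FCN3 virus. In GRCh37, ATF4 spans bases 39915700 to 39918688 of chromosome 22 (plus strand), with no other annotated gene over it.

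DDIT3, which encodes the pro-apoptotic factor CHOP, showed the largest change of the 10. Its CPM was 6.92 and 7.89 in the EV libraries and 155.5 and 143 in the FCN3 libraries, with the groups far apart and the replicates close. The log2 fold change was 4.35 (SE 0.12, edgeR adjusted p = 4.0e-04), or 20.4-fold, which was the 18th largest absolute change of the 14099 tested genes. Taken alone, the replicate 1 libraries gave 4.48 and the replicate 2 libraries 4.17 on the log2 scale. Exact 95% Poisson intervals for the EV values, which cover counting error only, ran from 6.09 to 7.82 and from 6.60 to 9.35 CPM.

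In GRCh37, DDIT3 spans bases 57910371 to 57915520 of chromosome 12 (minus strand), of which it shares 982 bases with MARS1 and 1028 bases with MBD6, both on the opposite strand, and 2769 bases with another protein-coding locus on its own strand. MARS1, listed in the tables as MARS, a tRNA synthetase gene, was at 255, 247, 357.5 and 388 CPM in EV replicates 1 and 2 and FCN3 replicates 1 and 2, a log2 fold change of 0.57 (SE 0.08). MBD6 was at 26.7, 37.3, 47.5 and 68.4 CPM (log2 fold change 0.86, SE 0.24). The library kit keeps strand but the strand setting of the counting is not given in the sources used here, and the part of reads from these neighbours in the DDIT3 counts was not tested. The mean transcript length that the authors' software estimated for DDIT3, weighted by isoform, was 954 and 982 bases in EV cells and 927 and 942 bases with the FCN3 virus. An offset for effective length gave a log2 fold change of 4.41.

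ATF3, a stress-induced factor of the same bZIP class that represses as well as activates, rose from 3.48 and 5.79 CPM to 34.97 and 35.5 CPM. The FCN3 libraries were nearly equal, while the EV libraries rested on 127 and 97 expected counts. Its log2 fold change was 3.001 (SE 0.23, edgeR adjusted p = 0.005), an 8.004-fold increase. It came to 3.30 in the replicate 1 pair and 2.599 in the replicate 2 pair. In EV replicate 1 the estimated transcript length of ATF3 was 1994 bases, against 2063 to 2070 in the other libraries.

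ATF5 is the closest relative of ATF4 and a regulator of the mitochondrial stress response. It was at 49.7 and 67.1 CPM in EV cells and at 36.9 and 44.1 CPM with the FCN3 virus, so that its groups did not overlap and the difference ran opposite to that of the other members. This was a log2 fold change of -0.53 (SE 0.18, adjusted p = 0.15 in edgeR). With the replicate block it was -0.51 (SE 0.07, adjusted p = 5.7e-09), a called decrease. Replicate 2 was above replicate 1 in both groups, by 0.35 on the log2 scale (SE 0.07, adjusted p = 4.9e-05 in edgeR with the condition in the model). ATF5 spans bases 50431959 to 50437192 of chromosome 19 in GRCh37 (plus strand). On the opposite strand it shares 1063 bases with NUP62 and all 5234 with another protein-coding locus. NUP62, a nuclear pore gene, was at 198 and 219 CPM in EV cells, against 153.5 and 168 CPM in the FCN3 libraries (a log2 change of -0.38, SE 0.10, edgeR adjusted p = 0.081, and 2.5e-08 with the block). The part of NUP62 in the ATF5 values was not tested.

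The C/EBP members differed from each other. CEBPG, which dimerizes with ATF4 and lacks an activation domain of its own, rose from 91.5 and 89.9 CPM to 210.0 and 232 CPM (log2 fold change 1.28, SE 0.09, edgeR adjusted p = 0.0035). The replicates lay close together in each group and the groups were well apart. CEBPB, a factor of the acute phase and of differentiation that can also pair with ATF4, was at 58.6 and 75.3 CPM in EV cells and 85.0 and 68.5 CPM with the FCN3 virus. The ranges overlapped: on the log2 scale the difference was 0.54 in the replicate 1 pair and -0.14 in the replicate 2 pair. CEBPB was not called without the block (log2 fold change 0.20, SE 0.17, edgeR adjusted p = 0.50) or with it (adjusted p = 0.019). Per length, CEBPG stood at 0.841 and 0.642 of the TPM of CEBPB in EV cells and at 1.33 and 1.82 of it with the FCN3 virus. The antisense gene CEBPB-AS1 shares 669 bases with CEBPB in GRCh37.

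**Figure D2:**
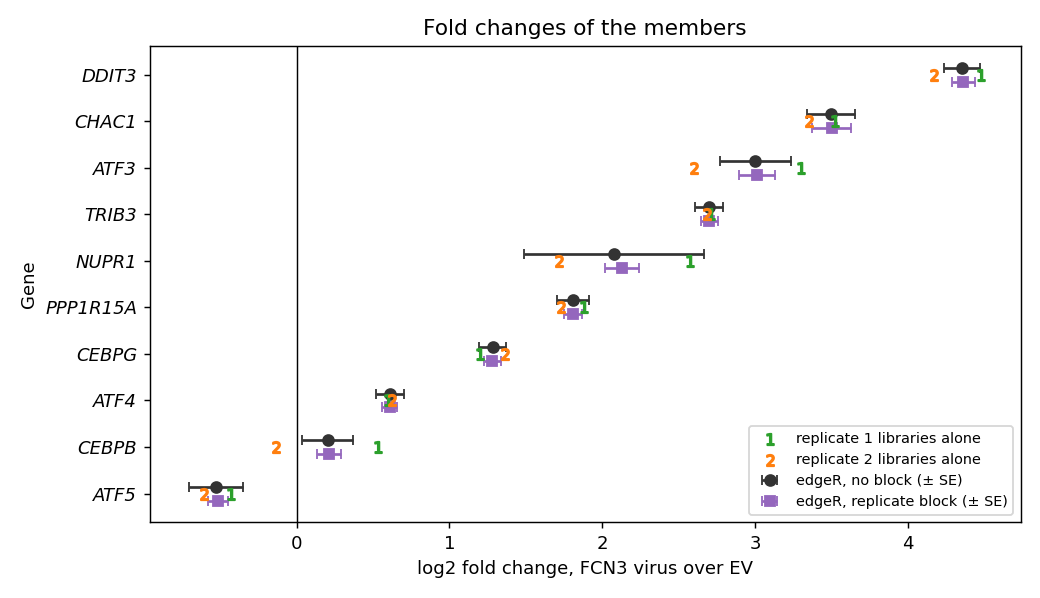
log2 fold change of the FCN3 virus over EV for each member, from edgeR without (circles) and with the replicate block (squares), bars being SE, and from the libraries of each replicate number alone (digits 1 and 2). The values run from 4.35 in DDIT3 to -0.53 in ATF5 without the block, the block narrows the error bar of NUPR1 most, from 0.59 to 0.11, and the digits fall on either side of 0 in CEBPB.

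TRIB3, a pseudokinase that binds ATF4 and AKT and acts as a brake on the response, went from 52.0 and 49.2 CPM to 340.0 and 316 CPM. Its log2 fold change of 2.70 (SE 0.09, edgeR adjusted p = 5.9e-04) was 2.71 and 2.68 in the replicate 1 and replicate 2 libraries taken alone, the closest match among the called members. PPP1R15A, the inducible partner of the eIF2alpha phosphatase, went from 53.1 and 61.8 CPM to 196 and 205 CPM (log2 fold change 1.81, SE 0.11, edgeR adjusted p = 0.0028). In both genes the lowest FCN3 library was more than 3-fold above the highest EV library.

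CHAC1 breaks down glutathione and is a target of ATF4. It was at 2.14 and 2.39 CPM in EV cells, from 78 and 40 expected counts, and at 25.4 and 25.0 CPM with the FCN3 virus. A log2 fold change of 3.50 (SE 0.16, edgeR adjusted p = 0.0014) corresponds to 11.3-fold and was the second largest of the 10 after that of DDIT3. Counting intervals (exact Poisson, 95%) of the EV values were 1.69 to 2.67 and 1.71 to 3.25 CPM, far under those of the FCN3 libraries, 23.7 to 27.2 and 22.9 to 27.3 CPM.

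NUPR1, a small chromatin-associated stress protein, behaved less evenly. It was at 4.45 and 15.1 CPM in EV replicates 1 and 2 and at 26.8 and 49.7 CPM in FCN3 replicates 1 and 2. The FCN3 libraries were both above the EV libraries, yet replicate 2 exceeded replicate 1 within each group. The log2 fold change was 2.08 (SE 0.59, edgeR adjusted p = 0.10), and with the replicate block it was 2.13 (SE 0.11, adjusted p = 4.9e-23). The difference between replicate numbers, with the condition in the model, was 1.20 on the log2 scale (SE 0.11, edgeR adjusted p = 3.5e-13). Without EV replicate 2 the change was 3.08 and passed the threshold (edgeR adjusted p = 0.007), and without EV replicate 1 it was 1.34 (adjusted p = 0.10). NUPR1 and ATF5 were the 2 members of 10 that differed between the replicate numbers at an FDR of 0.01, as did 22.2% of all tested genes. A lncRNA on the same strand shares 1969 bases with NUPR1 in GRCh37. What the numbers stand for in the cultures is not stated in the labels.

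The order of the members by length-corrected level changed. In EV cells the mean TPM was 414 for ATF4 and then 63.0 for CEBPB, 55.6 for ATF5, 47.3 for PPP1R15A, 46.0 for CEBPG and 40.4 for TRIB3. The libraries of CEBPB and ATF5 overlapped, as did those of ATF5 and PPP1R15A and those of PPP1R15A and CEBPG. NUPR1 (25.7), DDIT3 (16.9), ATF3 (4.53) and CHAC1 (2.97) followed, the wide range of NUPR1, 11.7 to 39.7 TPM, reaching from below DDIT3 to above the lower library of TRIB3.

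With the FCN3 virus ATF4 was again first at 589 TPM, but DDIT3 (332 TPM) and TRIB3 (244 TPM) came next, ahead of PPP1R15A (154), CEBPG (104), NUPR1 (94.1) and CEBPB (67.2). ATF5 (36.0), ATF3 (31.6) and CHAC1 (30.9) were last. NUPR1 overlapped both CEBPG and CEBPB, and ATF3 and CHAC1 differed by less than the SD of ATF3 (0.764 TPM, n = 2). The TPM of DDIT3 was 0.0404 and 0.0412 of that of ATF4 in the EV libraries and 0.623 and 0.511 of it in the FCN3 libraries, and that of TRIB3 went from 0.105 and 0.0913 to 0.452 and 0.381. ATF5 went the other way, from 0.119 and 0.149 to 0.0586 and 0.0633 of the TPM of ATF4. Together the 10 genes took 0.0607% and 0.0687% of all expected counts in EV cells and 0.147% and 0.156% with the FCN3 virus. TPM values were not rescaled between groups, and FCN3 itself was at 41618 and 44730 TPM in the FCN3 libraries. The median log2 change of all tested genes was -0.07 on log2(TPM + 1), against 0.02 in edgeR without the block. That of ATF5 was -0.61 against -0.53.

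**Figure D3:**
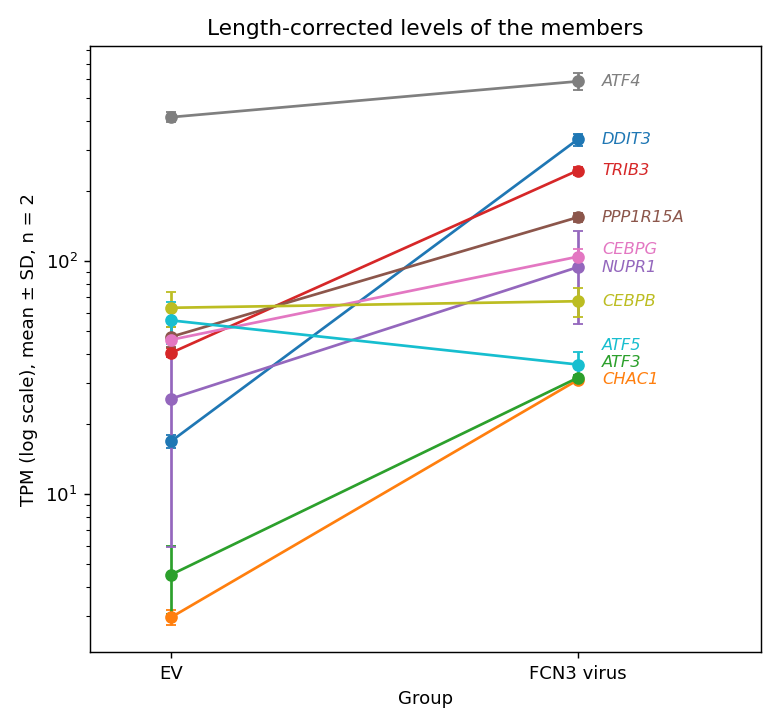
Mean TPM (log axis, bars SD, n = 2) of each member in EV and FCN3-virus-transduced cells, joined by a line. ATF4 is highest in both groups, DDIT3 moves from 16.9 to 332 TPM and from 8th to 2nd place, and ATF5 is the line that falls, from 55.6 to 36.0 TPM.

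Genes around this axis were described from lists. Over 114 genes of 6 lists outside the members, 108 were tested, and edgeR called 19 without the block, all of them higher, and 69 higher and 11 lower with it. The shares of all tested genes to read these against are 0.738% called higher without the block, and 19.1% higher and 17.1% lower with it. Among 22 genes for eIF2, its kinases and their regulators, the exchange factor eIF2B and the phosphatase partners, the median log2 fold change was 0.06, with values from -0.42 to 2.56, 15 above 0 and 7 below. Called without the block were 2: DNAJC3, a chaperone that inhibits eIF2 kinases (2.56, SE 0.16, edgeR adjusted p = 0.003), and the ER stress kinase EIF2AK3 (1.47, SE 0.09, adjusted p = 0.003). EIF2AK3 was at 25.7 and 26.4 CPM in EV cells and 73.5 and 70.5 CPM with the FCN3 virus. With the block, 7 genes of this list were called higher, 4 lower and 11 not, where 36.2% of all tested genes were called. Among the former were IMPACT, an inhibitor of the amino acid sensing kinase (0.63), and EIF2S2, the eIF2 beta subunit (0.47). The 4 lower ones, named after their values were seen, were the phosphatase subunits PPP1CC (-0.42) and PPP1CA (-0.29), QRICH1 (-0.27) and the heme-sensing kinase EIF2AK1 (-0.22).

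Relatives of the members were described too. Of 9 paralogs, 6 were tested, 0 of them called by edgeR without the block (4 at an unadjusted p under 0.05) and 4 with it. Calls in either direction made up 0.965% of all tested genes without the block and 36.2% with it, and so few paralogs do not set them apart from the members. JDP2, the factor most like ATF3, was at 19.8 and 29.5 CPM in EV cells and 40.01 and 49.0 CPM in FCN3 libraries (a log2 change of 0.87, SE 0.22, edgeR adjusted p = 0.077, and 3.4e-14 with the block). CHAC2, the constitutive relative of CHAC1, was at 18.5 and 14.3 CPM against 11.8 and 9.55 CPM (a log2 change of -0.62, SE 0.19, with an edgeR adjusted p of 0.13, or 2.2e-06 in the blocked fit). TRIB1 (log2 fold change 0.49) was called higher with the block alone and CEBPD (-0.66) lower with it alone. Neither PPP1R15B, the constitutive counterpart of PPP1R15A (0.08), nor CEBPA (-0.06) was called in either fit. CEBPE and NUPR1L had 0 counts in all libraries. TRIB2 lay between 0.120 and 0.177 CPM and did not pass the filter on low counts.

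Of 33 other bZIP factors, 31 were tested, with a median of 0.22. XBP1, the factor made by IRE1 splicing, was the one called without the block (log2 fold change 1.55, SE 0.10, edgeR adjusted p = 0.003). With the block 15 were called higher and 4 lower. By the log2 fold change without the block, the largest of these were HLF (-1.98), XBP1, DBP (-1.004) and NFIL3 (0.99). HLF and DBP were near 1 or 2 CPM in EV cells.

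Genes that ATF4 is known to activate were mostly higher, where 7316 of all 14099 tested genes were higher. In the list for amino acid supply and tRNA charging, 28 of 31 had a higher level with the FCN3 virus (median 0.71), 11 of them called without the block. With the block 27 were called higher and 1 lower, the amino acid transporter gene SLC7A5 (-0.32, named after its value was seen). The largest changes called were those of ALDH1L2, a mitochondrial folate enzyme (log2 fold change 2.58, SE 0.17), ASNS, asparagine synthetase (2.11, SE 0.09), the tRNA synthetase gene WARS (1.80, SE 0.08) and PHGDH of serine synthesis (1.48, SE 0.10), with adjusted p from edgeR between 0.0012 and 0.0037. ASNS was at 60.4 and 60.4 CPM in EV cells and at 251 and 272.5 CPM with the FCN3 virus.

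Of 16 other ATF4 targets, 15 were tested and all 15 were higher (median 1.05), with 4 called without the block and 14 with it. They included FAM129A, a regulator of eIF2alpha phosphorylation (5.44, SE 0.17), HERPUD1, an ER degradation factor also under other ER stress factors (3.78, SE 0.10), and SESN2, which restrains mTORC1 (2.27, SE 0.14). ADM2, a secreted peptide, changed by 3.55 (SE 0.39) from 0.439 and 0.956 CPM to 6.25 and 8.45 CPM, and was called with the block alone (edgeR adjusted p = 0.012 without it). The smallest change, that of INHBE (0.38), rested on 13 to 20 expected counts per library, and its groups overlapped.

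Among 8 genes attributed to DDIT3, 7 were tested, with a median of 0.75. GADD45A, of growth arrest, was called without the block (log2 fold change 1.64, SE 0.12, edgeR adjusted p = 0.0045). It was at 31.4 and 36.3 CPM in EV cells and at 98.2 and 113 CPM with the FCN3 virus. With the block 5 were called higher, among them the pro-apoptotic genes PMAIP1 (1.35), BBC3 (0.92) and TNFRSF10B (0.75), and 1 was called lower, the pro-apoptotic BCL2L11 (-0.39, named after its value was seen). The changes of these targets were smaller than that of DDIT3 itself, 4.35.

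**Figure D4:**
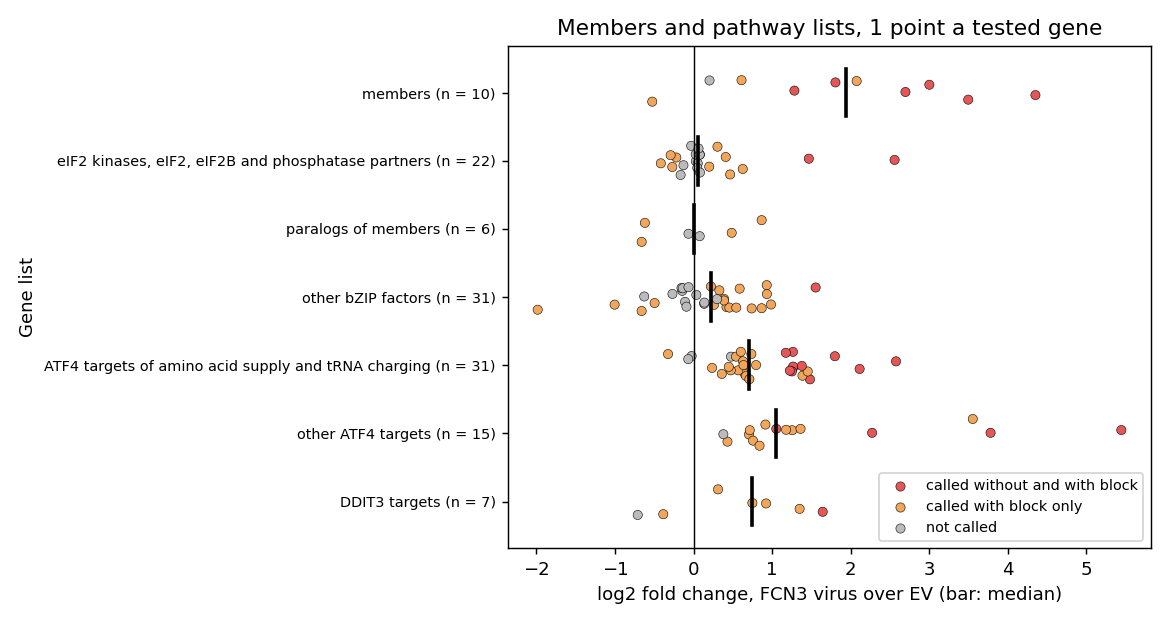
log2 fold change of each tested gene in the members and 6 pathway lists (1 point a gene, black bar the median), in red where edgeR called it without and with the replicate block, orange where with the block alone and grey where not called. Medians are 1.94 for the members, 0.06 for the eIF2 genes, 0.71 and 1.05 for the lists of ATF4 targets and 0.75 for the DDIT3 targets.

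The tested genes nearest to DDIT3, ATF4 and ATF5 in their pattern over the 4 libraries were sought among the 11968 genes whose average log2 CPM reached 1, by the Euclidean distance of centred log2 CPM. Nearest to DDIT3 were HERPUD1 (distance 0.55), the secreted ER stress factor CRELD2 (0.66), SLC22A31 (0.73), the ER degradation gene DERL3 (0.88) and SLFN5 (0.89), whose log2 fold changes lay between 3.52 and 4.63. The value of 4.63 was that of DERL3, at 0.247 and 0.299 CPM in EV cells and not called without the block (edgeR adjusted p = 0.022). SLC22A31 was at 0.878 and 1.37 CPM in EV cells. The pattern of ATF4 had close neighbours, DOCK3 (0.03), FDPS of isoprenoid synthesis (0.04), PNMA2 (0.04), TMEM87B (0.05) and FAM114A1 (0.05), with changes from 0.57 to 0.66. For ATF5 they were ERF (0.03), NME4 (0.06), PAQR5 (0.06), LOC100506634 (0.08) and NAB2 (0.08), with changes from -0.47 to -0.54. With 4 libraries a distance describes little more than the fold change and the replicate difference of a gene.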

How the data were processed

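Poly(A) RNA of 4 A549 libraries, 2 per group, was analysed, with groups and replicate numbers from the sample labels. According to the methods and the submitters' processing notes, reads were trimmed by the authors, mapped with STAR 2.6.1d on hg19 and quantified with RSEM on RefSeq transcripts. Expected counts, estimated for each gene and not normalized, were deposited by the authors. They also deposited TPM and FPKM, normalized by length and depth; FPKM was not used. The deposited length columns hold isoform-weighted transcript lengths, another output of the same software.

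Rounded expected counts were analysed in R 4.3.3 with edgeR 4.0.16 (TMM, filterByExpr, quasi-likelihood test, Benjamini-Hochberg over 14099 genes, FDR 0.01, the study's threshold). SE was taken as the size of the log2 fold change over root F. A log2 fold change beside a call made with the block is from the fit without it, unless the blocked value is named. CPM values are TMM-normalized. The depth sets a floor of 3 counts at 0.084 to 0.183 CPM before TMM scaling, for counting error only. Nothing says that the replicates came from separate cultures, so p-values of the fit without the block measure the spread between these libraries. The blocked fit first takes out the difference between replicate numbers. Its p-values measure only the spread that these libraries leave after that. In both fits the estimate of spread borrows from other genes. Very small p-values in the blocked fit do not stand for many replicates. For 1 value, exact permutation of 2 against 2 libraries reaches p = 0.333 at the least. The labels do not say what a replicate number marks; the differences between replicates 1 and 2 in the 2 groups had r = 0.806 across 8310 genes, and the comparison was set by replicate number, so results of the blocked fit are given beside the others.

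Alternatives were DESeq2 1.42.0, RLE factors, no filter, FCN3 left out, unrounded counts, a length offset, limma 3.58.1 on log2(TPM + 1) or log2(TPM + 0.1), FDR 0.05 and each library left out. Scripts were tested on simulated data. Members and lists were chosen with earlier results of these data known, so their counts are descriptions. Named were all members, FCN3, overlapping neighbours of members (chosen after the values were seen), paralogs, the 4 largest called changes per list and the 5 nearest patterns. Locations are from GENCODE on GRCh37.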

Additional observations from a re-analysis of the deposited data

How the results depend on the processing

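The 6 increases called without the block (DDIT3, CHAC1, ATF3, TRIB3, PPP1R15A and CEBPG) passed the threshold in all 16 fits, those without 1 library included. The number of members called higher lay between 6 and 8 over these fits. Members called lower went from 0 to 1 (ATF5) with the replicate block in edgeR and in DESeq2. CEBPB was called in 0 of the fits, and its sign turned in the replicate 2 libraries alone (-0.14). ATF4 passed in 4 fits: both blocked ones, DESeq2 and FDR 0.05. Without 1 library in turn, the log2 fold change of ATF4 was 0.54 to 0.68, that of ATF5 -0.72 to -0.31 and that of NUPR1 1.34 to 3.08.

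Settings moved the counts more than the members' values. All genes called were 136, against 5103 with the replicate block, 1046 in DESeq2, 2209 in DESeq2 with the replicate block and 1014 at FDR 0.05, and 92 to 267 without 1 library (92 without FCN3 replicate 1 and 267 without EV replicate 2). Pathway genes called were 19, against 80, 50, 65 and 44 under the same 4 settings and 19 to 23 without 1 library. The cause was not tested. With 2 libraries per group, CHAC1, ATF3, DDIT3 and NUPR1 rested on the fewest counts of the members in EV cells, 40 to 252. The exact Poisson intervals of the 2 EV libraries overlapped for CHAC1 and DDIT3. They were apart for ATF3 (2.905 to 4.146 and 4.699 to 7.069 CPM) and NUPR1 (3.787 to 5.185 and 13.25 to 17.03 CPM). For ATF3 and NUPR1 the spread between EV libraries was thus wider than these counting intervals. Among the members with more counts, the EV intervals were apart as well for ATF4, ATF5, CEBPB and PPP1R15A. Those of CEBPG and TRIB3 overlapped.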
